A study of Arabidopsis thaliana with 8 samples.

Results

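The 200 loci described here are nuclear loci of Arabidopsis thaliana whose small RNA reads of 22 nt outnumbered those of 21 nt, on the authors' scale, in Col, es3 and es3dd alike. A locus was taken when the authors' mean for 22-nt reads was at least 10 in each genotype and at least 2 times the mean for 21-nt reads in each genotype. Of the 32420 loci in the deposited sheet, 32207 could be taken and 267 met both conditions, and the 200 with the largest sum of the 3 22-nt means were kept. The loci were thus selected on the 21-nt and 22-nt means of all 3 genotypes, so the levels, size ratios and genotype differences of the 200 loci are given as a description. Where members past the thresholds of a fit over all loci are counted, the count describes them and supports nothing.

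Aerial parts of untreated plants aged 20 days, of which 6 were spent on MS medium and the following 14 on soil, gave the RNA for small RNA sequencing. The labelled groups are es3, which carries ein5-1 and ski2-3, and es3dd, which carries ein5-1, ski2-3, dcl4-2 and dcl2-1, with 4 libraries each. Both groups therefore carry the mutations in EIN5 and SKI2, and they differ in those in the Dicer genes DCL4 and DCL2. Col, the wild type, stands in the deposited file only as the authors' means and comparisons, so its values carry no SD and no n. The series' own text calls the libraries biological replicates, each from whole aerial parts, so that fewer cells of a type and less RNA per cell cannot be told apart.

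Dicer enzymes cut double-stranded RNA into small RNAs of set lengths. In Arabidopsis DCL1 makes most microRNAs, DCL4 makes siRNAs of 21 nt, DCL2 makes siRNAs of 22 nt, and DCL3 makes the longer siRNAs that guide DNA methylation at transposons and other repeats. EIN5, also called XRN4, degrades decapped transcripts from the 5′ end, and SKI2 is a helicase that feeds transcripts to the cytoplasmic exosome, which degrades them from the 3′ end. When both routes are lost, RNA-dependent RNA polymerases can turn transcripts into double-stranded RNA for DCL4 and DCL2.

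A single member was annotated as a microRNA gene, MIR319c, and it held the highest level of the set. Its mature sequence is annotated at 21 nt and is shown first with the mature sequences of its family, with the seed (bases 2 to 8, counted from the 5′ end) in capitals. miR319a and miR319b were identical, and miR319c differed from them by C20U, counted from 1 at the 5′ end. All sequences are from RefSeq, build TAIR10.1.
miR319c, chr2:17029870-17029890, plus strand: uUGGACUGaagggagcuccuu
miR319a, chr4:12353109-12353129, plus strand: uUGGACUGaagggagcucccu
miR319b, chr5:16660469-16660489, minus strand: uUGGACUGaagggagcucccu
The MIR319c locus is shown whole, with its annotated mature sequence in capitals, because the deposited values count reads over this locus and not reads of that sequence.
MIR319c locus, chr2:17029701-17029899, plus strand: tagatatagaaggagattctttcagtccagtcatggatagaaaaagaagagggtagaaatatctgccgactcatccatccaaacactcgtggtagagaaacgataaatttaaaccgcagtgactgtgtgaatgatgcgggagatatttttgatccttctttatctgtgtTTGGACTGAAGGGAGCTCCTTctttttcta

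The other sequences show the 2 kinds of locus that stood near the top of the set. AT5G28560, a protein-coding locus of 285 bp, holds no 22-mer that occurs a second time in the genome, so that a 22-nt read matching it without a mismatch has 1 place of origin.
AT5G28560, chr5:10566846-10567130, plus strand: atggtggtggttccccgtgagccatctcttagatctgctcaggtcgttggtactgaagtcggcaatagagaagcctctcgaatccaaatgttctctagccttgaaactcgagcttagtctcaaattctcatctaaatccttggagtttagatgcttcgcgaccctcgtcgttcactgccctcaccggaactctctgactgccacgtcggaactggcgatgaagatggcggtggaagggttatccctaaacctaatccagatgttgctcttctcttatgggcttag
AT3G26870, which encodes a protein of the plant self-incompatibility S1 family, and AT3G30714, annotated as its pseudogene, are members that share sequence with each other. Their first 200 bases are shown, with capitals for the bases that lie in a 22-mer found in both loci. Of the 393 bases of each locus, 219 lie in such shared 22-mers, and a read from these cannot be assigned to 1 of the pair.
AT3G26870, chr3:9903481-9903680, minus strand: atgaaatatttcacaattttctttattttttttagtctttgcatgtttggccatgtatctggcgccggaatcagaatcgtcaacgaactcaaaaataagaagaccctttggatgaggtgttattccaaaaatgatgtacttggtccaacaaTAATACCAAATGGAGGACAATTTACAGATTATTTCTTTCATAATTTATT
AT3G30714, chr3:12301148-12301347, minus strand: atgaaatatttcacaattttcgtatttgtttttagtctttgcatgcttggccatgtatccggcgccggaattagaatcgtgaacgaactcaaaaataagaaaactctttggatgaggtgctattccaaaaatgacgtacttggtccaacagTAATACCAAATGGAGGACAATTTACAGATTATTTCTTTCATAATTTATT

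The values are reads brought to 1 common total for each library and size class, called TPM by the authors, and they are not divided by the length of the locus. The 21-nt and 22-nt classes were scaled apart, so a ratio of 2 on this scale is not exactly 2 times as many reads. Library values for es3 and es3dd were recovered from the authors' means, and 199 of the 200 loci have them at 22 nt and all 200 at 21 nt. The exception is MIR319c at 22 nt, whose level was beyond the reach of the recovery. The scale of a library ran from 1035224 to 1442114 reads over the libraries and size classes, so that 1 read was worth 0.693 to 0.966. Small RNA reads do not measure transcripts, so neither the tissue nor the mutations could be checked through them. All 4 leaf markers had 22-nt reads, and their summed level was 614 to 634 in the es3 libraries and 899 to 1024 in the es3dd libraries, beside a sum of the authors' means of 2354 in Col. At 21 nt the authors' means summed to 2755 in Col, 1292 in es3 and 984 in es3dd, so the order of the es3 and es3dd sums was the opposite there. RCA kept the 22-nt order, with 21-nt means of 87.9 in es3 and 201 in es3dd, while RBCS1A, RBCS2B and CAB1 were higher in es3. At 22 nt the 4 root markers summed to 23.6 to 25.02 in es3 and 3.22 to 10.6 in es3dd. Most of this was SCR, at 17.6 ± 1.86 in es3 and 2.14 ± 1.10 in es3dd, while PYK10 was at 6.66 ± 1.61 and 4.84 ± 3.30 (SD, n = 4 in each group), IRT1 was under 1 in both means and NRT2.1 was listed at 0. The part of these differences in the results below was not tested.

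On the authors' scale, most of the 200 loci had modest levels that were alike in the 3 genotypes, and es3dd most often had the highest. The median of the authors' 22-nt means was 28.3 in Col, 29.3 in es3 and 36.8 in es3dd, and the median of the 21-nt means was 9.66, 9.77 and 14.8. Over the 3 genotypes the 22-nt means stayed within a 2-fold range at 157 of the 200 loci. The highest of the 3 was in es3dd at 142 loci, in es3 at 37 and in Col at 21, and the lowest was in Col at 102, in es3 at 81 and in es3dd at 17. The place of es3 beside es3dd depends on the scaling. By the log2 difference, 48 of the 199 members with library values were higher in es3 on the authors' scale. With the libraries scaled to MIR loci, 192 of them were. The order of the loci by level was partly kept, with Spearman's rho over the 200 loci of 0.752 between Col and es3, 0.776 between Col and es3dd and 0.684 between es3 and es3dd. These coefficients describe loci that were all chosen for a high level in each genotype and that share their libraries.

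The 200 loci held 4.565% of the summed 22-nt means in Col, 3.802% in es3 and 6.228% in es3dd. MIR319c alone set a large share of this, and without it the other 199 loci held 3.046%, 3.387% and 4.502%. Of the summed 21-nt means the 200 loci held 0.457%, 0.459% and 0.562%.

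**Figure D1:**
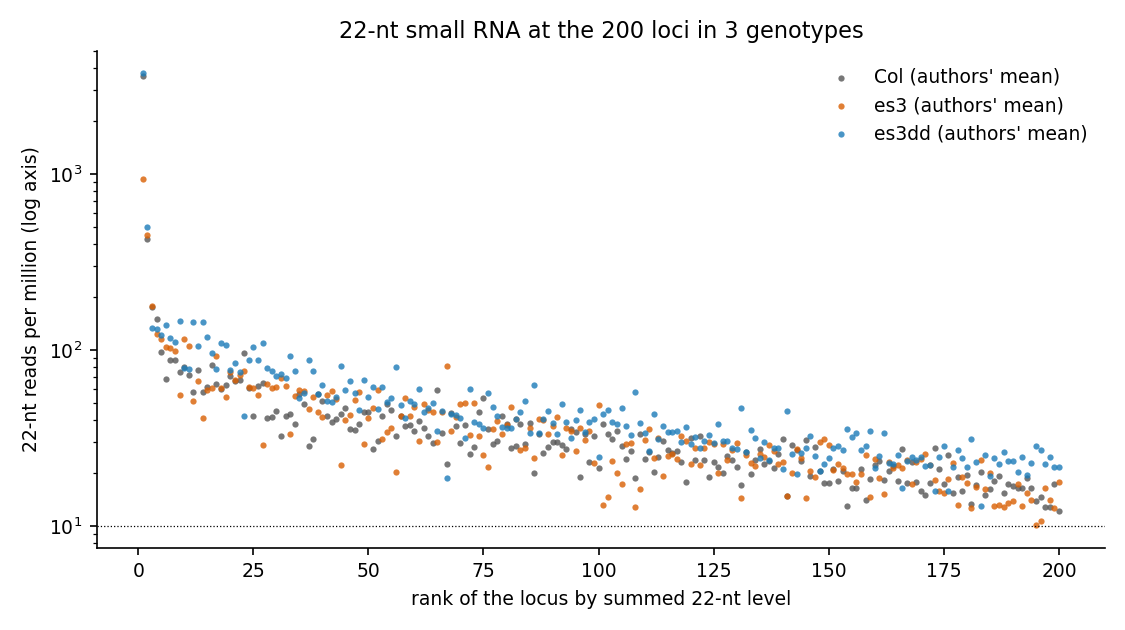
Authors' mean 22-nt level (log axis, TPM) of the 200 loci by rank of the summed level, with points for Col, es3 and es3dd and a dotted line at the minimum of 10 that the choice of loci set. MIR319c at rank 1 stands apart, at 3591 in Col, 938 in es3 and 3727 in es3dd, and the medians of the set are 28.3, 29.3 and 36.8.

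MIR319c encodes the precursor of miR319c, a microRNA of the family that directs cleavage of TCP transcription factor transcripts in leaf growth. The authors' 22-nt means were 3591 in Col, 938 in es3 and 3727 in es3dd. For the 21-nt reads, the es3 libraries held 61.0, 24.0, 68.8 and 42.7, and the es3dd libraries held 237, 609, 595 and 509. The 21-nt groups did not overlap, and the log2 difference of es3 from es3dd was -3.30 ± 0.25 (SE, n = 4 in each group). In the authors' deposited table the 22-nt log2 fold change of es3 over Col was -1.94 and that of es3 over es3dd was -1.99, and neither met the threshold of 0.05 for the adjusted p. The authors' means for its size ratio were the highest of the set, with 14.1 times as much at 22 nt as at 21 nt in Col, 19.1 times in es3 and 7.64 times in es3dd.

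The other loci of the family were not members, because their 21-nt reads outnumbered their 22-nt reads. MIR319a had authors' 22-nt means of 1001, 223 and 1068 in Col, es3 and es3dd, beside a 21-nt mean of 7402 in Col. MIR319b had 22-nt means of 161, 23.2 and 184, beside a 21-nt mean of 4366 in Col. In all 3 loci the 22-nt mean of es3 was the lowest of the 3 genotypes. Lower levels in es3 than in es3dd were common among MIR loci. By limma, at the thresholds given below, 55 of 95 MIR loci tested at 22 nt were lower and 2 higher. At 21 nt 71 of 92 were lower and 2 higher. Over all loci tested, 4.32% were lower and 15.1% higher at 22 nt, and 7.67% and 45.8% at 21 nt. The median log2 difference of the MIR loci was -1.28 at 22 nt and -1.68 at 21 nt.

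Below MIR319c, the 2nd to 4th loci by summed level were protein-coding. AT2G16030 (chr2:6973673-6975007, minus strand), annotated as an S-adenosyl-L-methionine-dependent methyltransferase, had 22-nt values of 449.7, 453.4, 461.4 and 440.7 in es3 and 546.3, 440.4, 541.1 and 468.5 in es3dd, with an authors' mean of 429.9 in Col. The groups overlapped, and the difference of es3 from es3dd was -0.14 ± 0.06 (SE, n = 4 in each group) on the scale of log2(value + 1), which is used for all such differences here. AT1G36745 (chr1:13911137-13911679, plus strand), an uncharacterized protein, had 148.6, 178.0, 181.9 and 203.3 in es3 and 140.8, 122.6, 160.9 and 110.2 in es3dd, beside 176 in Col. The lowest es3 library lay below the highest es3dd library, and the log2 difference was 0.42 ± 0.10 (SE, n = 4 in each group). AT5G28560, whose sequence is shown above, had 88.0, 114.4, 139.3 and 150.4 in es3 and 175.4, 107.7, 136.1 and 111.1 in es3dd, beside 151 in Col. Its libraries spread over nearly the same range in both genotypes, with a log2 difference of -0.11 ± 0.12 (SE, n = 4 in each group).

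Dividing by the length of the locus changed which loci led below MIR319c. Per kilobase, the authors' 22-nt mean was 18044 for MIR319c in Col, 4711 in es3 and 18728 in es3dd. AT5G28560 came next with 529, 432 and 465 per kilobase, followed by AT2G16030 with 322, 338 and 374 and AT1G36745 with 323, 328 and 246. AT3G26870 followed them, at 181, 192 and 197 per kilobase. The median over these 199 loci was 13.5, 14.0 and 18.5 per kilobase in Col, es3 and es3dd.

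Pseudogenes filled most of the remaining ranks. AT1G38250 (chr1:14370226-14372238, plus strand) had 22-nt values of 115.3, 105.1, 121.6 and 122.0 in es3 and 125.5, 133.1, 120.2 and 109.3 in es3dd. AT1G38320 (chr1:14415952-14417511, plus strand) had 93.3, 94.1, 104.7 and 104.0 in es3 and 110.2, 119.1, 115.8 and 101.3 in es3dd. Both overlapped between the groups, and all 1539 of the 22-mers of AT1G38320 were also in AT1G38250, so their values are not independent. AT3G45775 (chr3:16809432-16813871, minus strand), with 0.0226% of its 22-mers repeated in the genome, had 107.7, 115.3, 99.4 and 93.6 in es3 and 152.9, 141.0, 137.0 and 124.5 in es3dd. All of its es3 libraries lay below all of its es3dd libraries, at a log2 difference of -0.41 ± 0.11 (SE, n = 4 in each group).

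The pair whose sequences are shown, AT3G26870 and AT3G30714, had nearly the same values. AT3G26870 had 81.9, 83.1, 67.4 and 69.0 in es3 and 78.0, 70.0, 75.1 and 86.2 in es3dd. AT3G30714 had 79.6, 77.1, 66.5 and 67.1 in es3 and 74.8, 66.5, 75.1 and 85.3 in es3dd. In each genotype the library with the lowest value was the same for both loci. How the authors counted reads with several places of origin is not given in the sources used here.

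Library values of the other high-ranking loci were within the same range. AT2G07685 (chr2:3307942-3309231, plus strand), a pseudogene, had means of 102 ± 5.35 in es3 and 117 ± 8.48 in es3dd (SD, n = 4 in each group). AT2G16560, a pseudogene on chromosome 2, had 66.4 ± 9.13 and 105 ± 12.3 (SD, n = 4 in each group). AT2G16040, which encodes a protein with a hAT transposase dimerization domain next to AT2G16030, had 59.6 ± 3.08 and 119 ± 12.1 (SD, n = 4 in each group). AT5G32306 and AT5G34865, pseudogenes on chromosome 5, went the other way, with 116 ± 6.60 in es3 against 79.7 ± 1.93 in es3dd and 105 ± 2.67 against 78.6 ± 10.5 (SD, n = 4 in each group). AT1G41775, a pseudogene with 92.8 ± 15.1 and 78.1 ± 19.3 (SD, n = 4 in each group), overlapped between the groups. AT5G24065, a transcribed pseudogene, had 61.0 ± 8.68 in es3 and 96.3 ± 8.26 in es3dd (SD, n = 4 in each group), and the pseudogene AT1G35740 had 54.1 ± 4.73 and 107 ± 12.7 (SD, n = 4 in each group).

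**Figure D2:**
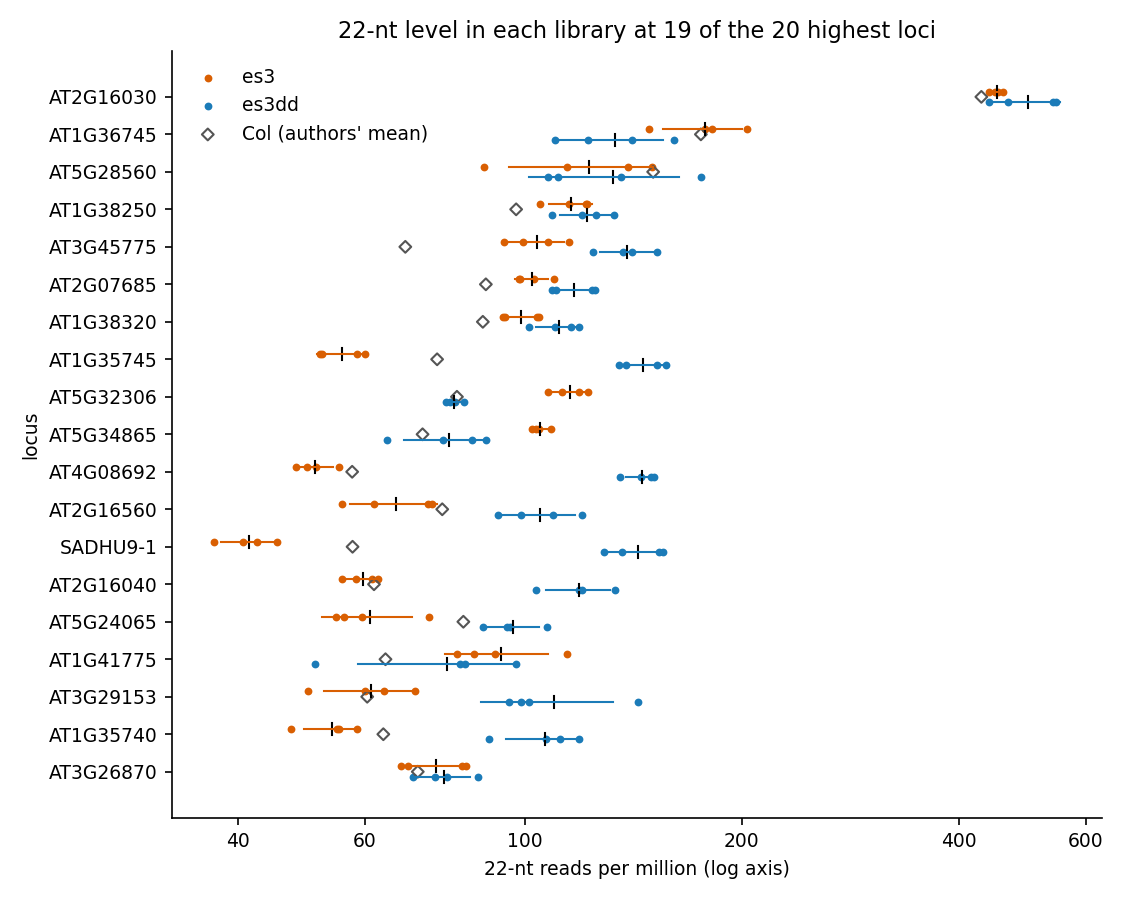
Recovered 22-nt values (TPM, log axis) of each es3 and es3dd library at 19 of the 20 loci with the largest summed level (MIR319c has no library values at 22 nt), with an upright tick and a line for the mean ± SD (n = 4) and a diamond for the authors' Col mean. AT2G16030 lies between 440.4 and 546.3 in every library, while SADHU9-1 lies between 37.2 and 45.4 in es3 and between 128.9 and 155.6 in es3dd.

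For a typical member the libraries of a genotype differed about as much as counting error alone gives. The median coefficient of variation over the 4 libraries at 22 nt was 17.6% for es3 and 15.5% for es3dd, beside 17.1% and 15.3% for counting error. The median member had 137 reads over the 4 es3 libraries, with a range of 47 to 2114, and 170 over the 4 es3dd libraries, with a range of 61 to 2321. At 21 nt the medians were 52 and 64 reads, and the lowest was 6 reads in es3. The reads carry no molecular identifiers that the sources used here describe, so this covers counting error only.

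The preponderance of 22-nt reads was moderate at most loci and, on the authors' scale, was lowest in es3dd. The median ratio of the 22-nt to the 21-nt mean was 2.77 in Col, 3.16 in es3 and 2.46 in es3dd. The ratio was 3 or more at 75 loci in Col, at 115 in es3 and at 46 in es3dd, and at 22 loci in every genotype. It was highest in es3 at 114 of the 200 loci and lowest in es3dd at 115. Since the size classes were scaled apart, this order and these counts depend on the scaling. With both classes on 1 read scale, the median log2 ratio moved from 1.66 to 1.47 in es3 and from 1.298 to 1.398 in es3dd. Most of the distance between es3 and es3dd was thus gone. Col has no library values, so its ratio could not be put on this scale and its place in the order is not settled.

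**Figure D3:**
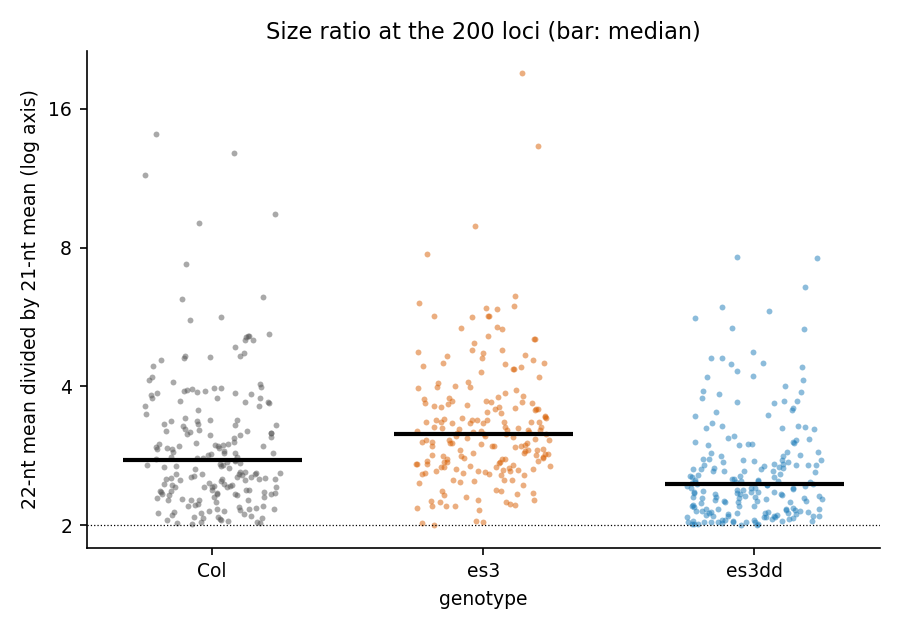
Ratio of the authors' 22-nt mean to the 21-nt mean in Col, es3 and es3dd for the 200 loci, on a log axis, with a bar at the median and a dotted line at the minimum of 2 that the choice of loci set. The medians are 2.77, 3.16 and 2.46, and MIR319c has the highest ratio in each genotype, up to 19.1 in es3.

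At the edges of the choice, neighbouring loci had nearly equal values. By summed level, AT5G32563 at 51.8 and AT2G12835 at 51.78 were the last taken, and AT1G33000 at 51.75 and AT2G17460 at 50.7 were the first left out. By the minimum of 10, AT3G29610 with a lowest 22-nt mean of 10.15 and AT5G03950 with 10.8 were in, and AT1G36445 with 9.44 and AT2G10920 with 9.41 were out. By the size ratio, AT2G11030 and AT3G43835 with a lowest ratio of 2.0002 and 2.0005 were in, and AT4G04250 with 1.999 and AT4G06636 with 1.998 were out. AT4G04250 had 22-nt means of 207, 209 and 179 in Col, es3 and es3dd, which would have placed it among the leading loci.

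Between es3 and es3dd, more of the 200 loci were lower in es3 than higher. A locus was called when limma's adjusted p over all loci kept was under 0.05 and the log2 difference was at least 1 in size. At 22 nt, 15.1% of the 14637 loci tested were called higher in es3 and 4.32% lower, and among the 199 members with library values 1 was called higher and 22 lower. All members had high 22-nt means, and the share called lower depended on the level. Over the 3239 loci with a mean of at least 10, 478 were called higher and 288 lower, beside the same 1 and 22 members. At 21 nt, 45.8% of 17371 loci were called higher and 7.67% lower, and among the 200 members 1 was called higher and 43 lower. Over the 3387 loci with a 21-nt mean of at least 10, 1549 were called higher and 531 lower. Of the 129 members among them, 1 was called higher and 26 lower. These 21-nt counts turned on the scaling, with 0 members higher and 165 lower when libraries were centred on the median locus, and 147 higher and 1 lower when they were scaled to MIR loci. At both sizes together, 1 member was called higher and 19 lower, and the share of all loci called at both sizes was not computed. These means chose the members, so nothing is read from their share of the calls.

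The median log2 difference of es3 from es3dd was -0.31 over the members with library values and 0.30 over all 14637 loci tested at 22 nt, with 48 members above 0 and 151 below. At 21 nt it was -0.62 over the 200 members and 0.98 over all 17371 loci. The sign depends on the scaling: with the libraries scaled to MIR loci the median of the members at 22 nt was 1.28, while that of all loci was 1.89. MIR scaling shifts every locus alike, so the distance of the members' median from that of all loci, -0.61, is the same under both by construction. It was -0.285 with quantile normalization and -0.42 with a pseudocount of 5. With the test restricted to loci with a mean of at least 10, where the median of all loci was -0.05, the members' median relative to it was -0.26. Every es3 library lay below every es3dd library at 63 members at 22 nt, beside 6.83% of all loci tested, and above at 9 members, beside 16.3%. At 21 nt it lay below at 71 members, beside 8.93%, and above at 1 member, beside 36.6%. These shares are over all loci with a mean of at least 1, and shares over loci at the level of the members were not computed. In the authors' deposited table, 10.9% of 14139 loci were higher and 3.78% lower in es3 than in es3dd at 22 nt by the same thresholds, and 1 member was higher and 24 lower.

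**Figure D4:**
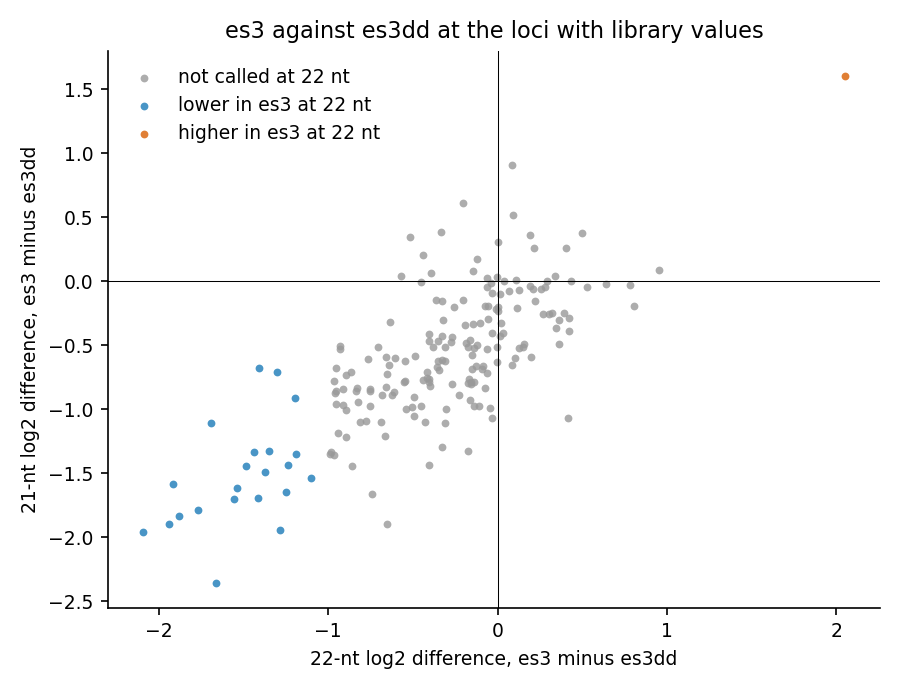
Log2 difference of es3 from es3dd (limma, log2 of value + 1, authors' scaling) at 22 nt on the x axis and at 21 nt on the y axis, 1 point for each of the 199 loci with library values. Points called lower in es3 at 22 nt are blue (22 loci), the 1 called higher, LURP1 at 2.05 and 1.60, is orange, and loci not called are grey.

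The member called higher in es3 was LURP1, AT2G14560 (chr2:6213617-6215932, plus strand), a gene named for its late induction by infection with a downy mildew. Its 22-nt values were 86.4, 83.9, 72.8 and 82.3 in es3 and 20.9, 16.6, 18.6 and 19.6 in es3dd, beside an authors' mean of 22.6 in Col. The groups lay far apart, and the es3dd libraries lay near the Col mean. The log2 difference of es3 from es3dd was 2.05 ± 0.18 at 22 nt and 1.60 ± 0.31 at 21 nt (SE, n = 4 in each group). In the authors' deposited table its 22-nt log2 fold change of es3 over Col was 1.86.

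The next highest differences of es3 from es3dd missed the 2-fold minimum. AT4G07586 (chr4:4404032-4406056, minus strand), a pseudogene, had 51.6, 50.0, 49.7 and 43.5 in es3 and 28.2, 23.6, 23.0 and 24.0 in es3dd, with a log2 difference of 0.95 ± 0.19 (SE, n = 4 in each group). Its groups did not overlap. AT5G54700, which encodes an ankyrin repeat protein, differed by 0.81 ± 0.26 on the log2 scale, AT3G32200, annotated as a myosin heavy chain-like protein, by 0.78 ± 0.17, and AT5G34839, a pseudogene, by 0.64 ± 0.18 (SE, n = 4 in each group). AT3G32200 had an es3 library at 111.0 beside others at 50.8, 69.2 and 74.7, and its es3dd libraries lay between 38.0 and 48.9.

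Among the loci with library values, the 5 lowest differences of es3 from es3dd belonged to 4 pseudogenes and 1 protein-coding gene. AT1G36880 (chr1:13961890-13963772, minus strand), a transcribed pseudogene, had 12.9, 13.6, 10.6 and 14.2 in es3 and 54.7, 58.7, 58.3 and 58.7 in es3dd, with a log2 difference of -2.09 ± 0.21 (SE, n = 4 in each group). AT4G08596 (chr4:5475880-5477918, minus strand), a pseudogene, had 20.5, 24.6, 19.5 and 17.02 in es3 and 77.2, 77.9, 76.9 and 89.8 in es3dd, with -1.94 ± 0.18 (SE, n = 4 in each group). In both loci the authors' Col mean, 18.8 and 32.6, lay between the genotypes.

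MRU1, AT5G35490 (chr5:13689817-13690548, plus strand), was named for its response in the mto1 mutant, which overaccumulates methionine. It had 22-nt values of 28.1, 39.8, 26.6 and 21.8 in es3 and 118.3, 96.3, 123.8 and 103.1 in es3dd, beside 65.2 in Col. The log2 difference of es3 from es3dd was -1.91 ± 0.16 (SE, n = 4 in each group), and 0.141% of its 22-mers were repeated in the genome. AT3G30190, a pseudogene on chromosome 3, had 31.8, 12.7, 24.8 and 19.9 in es3 and 80.5, 64.8, 89.3 and 90.7 in es3dd, with -1.88 ± 0.19 (SE, n = 4 in each group). The es3 libraries of these loci all lay below their es3dd libraries.

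SADHU9-1, AT1G44935 (chr1:16985002-16985852, plus strand), belongs to the Sadhu retroelements, a family of non-autonomous retroposons. It had 37.2, 40.7, 42.6 and 45.4 in es3 and 153.7, 136.6, 155.6 and 128.9 in es3dd, beside 57.8 in Col, with a log2 difference of -1.77 ± 0.13 (SE, n = 4 in each group). AT4G08692 (chr4:5558042-5558705, minus strand), a pseudogene, had 55.4, 50.0, 51.5 and 48.2 in es3 and 149.6, 135.7, 151.2 and 144.9 in es3dd, with -1.49 ± 0.12 (SE, n = 4 in each group). AT1G35745 (chr1:13248054-13249824, minus strand), another pseudogene, had 52.3, 60.2, 58.6 and 52.0 in es3 and 152.9, 138.3, 135.3 and 157.3 in es3dd, with -1.37 ± 0.12 (SE, n = 4 in each group). With the libraries scaled to MIR loci the last 2 differences changed sign, to 0.11 and 0.22.

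By class, 20 of the 154 pseudogenes and 2 of the 44 protein-coding loci were called lower in es3 at 22 nt, and 1 protein-coding locus was called higher, beside 4.32% lower and 15.1% higher over all loci tested. Over the 3239 loci with a mean of at least 10, 288 were called lower and 478 higher. The median log2 difference was -0.29 for the pseudogenes and -0.34 for the protein-coding loci. Loci with at least 50% of their 22-mers repeated in the genome had a median of -0.16 over 87 loci, with 8 called lower. The 111 loci with a smaller repeated share had a median of -0.40, with 14 called lower and 1 higher. The difference between these subsets was not tested.

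Against Col, the 200 loci were centred near 0 in es3 at 22 nt. In the authors' deposited table the median log2 fold change of es3 over Col was 0.07 over the 200 members, with 109 above 0 and 91 below, and 0.19 over all 14640 loci with an adjusted p. By an adjusted p under 0.05 and a log2 fold change of at least 1 in size, the authors' deposited table had 7.85% of these loci higher in es3 and 3.96% lower, and 3 members higher and 6 lower. This comparison and that of es3 with es3dd share the es3 libraries, so their values are given side by side and not related to each other.

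The highest members in the authors' deposited table for es3 over Col were LURP1 at 1.86, AT4G07586 at 1.16, AT4G06474 at 1.08, AT2G10310 at 0.97 and AT5G33226 at 0.93 on the log2 scale. Apart from LURP1 these are pseudogenes, and the first 3 passed both thresholds. AT4G06474 had a Col mean of 32.6, an es3 mean of 69.6 ± 7.84 and an es3dd mean of 73.3 ± 7.69 (SD, n = 4 in each group). AT2G10310 had 30.6 in Col, 59.3 ± 10.07 in es3 and 46.4 ± 4.65 in es3dd, and AT5G33226 had 19.1, 36.0 ± 8.64 and 45.6 ± 6.27 (SD, n = 4 in each group). For these 3 loci both mutant genotypes lay above the Col mean.

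The lowest members in the authors' deposited table for es3 over Col were MIR319c at -1.94, AT5G28535 at -1.52, AT2G13143 at -1.22, MRU1 at -1.15 and AT3G30147 at -1.08, of which all but MIR319c passed both thresholds. AT5G28535, a pseudogene on chromosome 5, had a Col mean of 38.0, 13.3 ± 4.43 in es3 and 43.4 ± 9.50 in es3dd (SD, n = 4 in each group). AT2G13143, a pseudogene on chromosome 2, had 33.6, 14.7 ± 3.15 and 45.7 ± 12.2 (SD, n = 4 in each group). AT3G30147, a transcribed pseudogene on chromosome 3, had 30.9, 14.5 ± 1.85 and 28.0 ± 5.26 (SD, n = 4 in each group). In each of these loci es3 had the lowest of the 3 values.

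Beyond leaving out plastid and mitochondrial loci and 3 nuclear loci by name, annotation was not used in the choice of the loci. By RefSeq's biotype, 154 of the 200 loci were pseudogenes (77.0%), 44 were protein-coding (22.0%), 1 was a microRNA gene and 1, AT1G01073, had no match. The pseudogenes include SADHU9-1, a retroelement, so this class is not free of transposable elements. How many others of the class are transposable elements was not counted beyond the words of the annotation. The RefSeq product was given as an uncharacterized protein for 158 loci, and the annotation of 3 named a transposon, transposase or reverse transcriptase. Among the 32207 loci that could be taken, 14.99% were pseudogenes. Among the 1943 other loci that also reached 10 at 22 nt in every genotype, without the size ratio, 70.1% were pseudogenes, so most of the distance from the background was there without the ratio. Among the 4019 other loci that reached 10 at 22 nt in any genotype the share was 50.04%. The 67 loci that met the rule below the 200 were pseudogenes in 80.6% of cases.

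The mirrored choice, with 21-nt means of at least 10 and at least 2 times the 22-nt mean in each genotype, gave 101 loci of another kind. Of these 72.28% were microRNA genes and 8.91% were pseudogenes. Their median length was 167 bp, beside 2031 bp for the 199 members with a length and 2065 bp for all nuclear loci.

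The loci of the small RNA machinery and of RNA decay were outside the set. None of 26 small RNA pathway genes and none of 10 RNA decay genes met the rule, beside 267 of the 32207 loci that could be taken. Few of them reached the minimum of 10 at 22 nt: 2, 3 and 1 of the 26 in Col, es3 and es3dd, and 0 of the 10 in each. Nothing is read from their absence. Of the 175 MIR loci that could be taken 1 was a member, and none of the 27 with an annotated 22-nt mature sequence was, beside 200 members among all 32207 loci. Of 194 loci annotated with a transposon, transposase or reverse transcriptase, 3 were members. Among the small RNA pathway genes, 10 were tested at 22 nt, of which 4 were called higher in es3 than in es3dd and 0 lower by limma, beside 15.1% and 4.32% of all loci tested. Their median log2 difference was 1.36, beside 0.30 for all loci.

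The middle 50% of the members by position lay within a limited stretch of each chromosome, and many members lay among pseudogenes. Chromosomes 1 to 5 held 31, 45, 46, 34 and 43 members, and their median positions were 14.46, 5.26, 13.85, 3.81 and 11.83 Mb in the build TAIR10.1. These stretches spanned 13.52 to 16.89 Mb on chromosome 1, 3.12 to 6.57 Mb on chromosome 2, 11.98 to 15.38 Mb on chromosome 3, 3.09 to 5.01 Mb on chromosome 4 and 10.62 to 13.09 Mb on chromosome 5. The lengths of these chromosomes are 30427671, 19698289, 23459830, 18585056 and 26975502 bp, so on chromosomes 2 and 4 this stretch lay toward the start of the sequence. Within 250 kb on either side of a member, the median share of pseudogenes among the neighbouring loci was 55.3%. It was 41.9% for the other loci at 10 or more in every genotype, 12.4% for those at 10 or more in any genotype, 3.43% for the 21-nt counterparts and 4.07% for all nuclear loci. At least 50% of the neighbours were pseudogenes for 109 members (54.77%), beside 10.19% of all nuclear loci.

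Repetition in the genome was common among the members but far from general. The median share of a member's 22-mers that occur more than once in the genome was 39.7%, beside 34.7% for the other loci at 10 or more in every genotype, 12.1% for those at 10 or more in any genotype, 5.30% for the 21-nt counterparts and 0.912% for all nuclear loci. At least 50% of the 22-mers were repeated in 87 members (43.72%), and in 7 members every 22-mer was. In 26 members (13.07%) under 1% was repeated, among them MIR319c, AT1G36745, AT5G28560, AT3G45775, AT1G35740 and MRU1. A 22-mer whose reverse complement lay in the same locus was found in 12 members (6.03%). The share was 2.48% for the other loci at 10 or more in every genotype and 1.68% for all nuclear loci. In the members such 22-mers were at most 2.29% of the 22-mers of a locus. The median GC content was 41.9%, beside 39.0% for all nuclear loci.

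**Figure D5:**
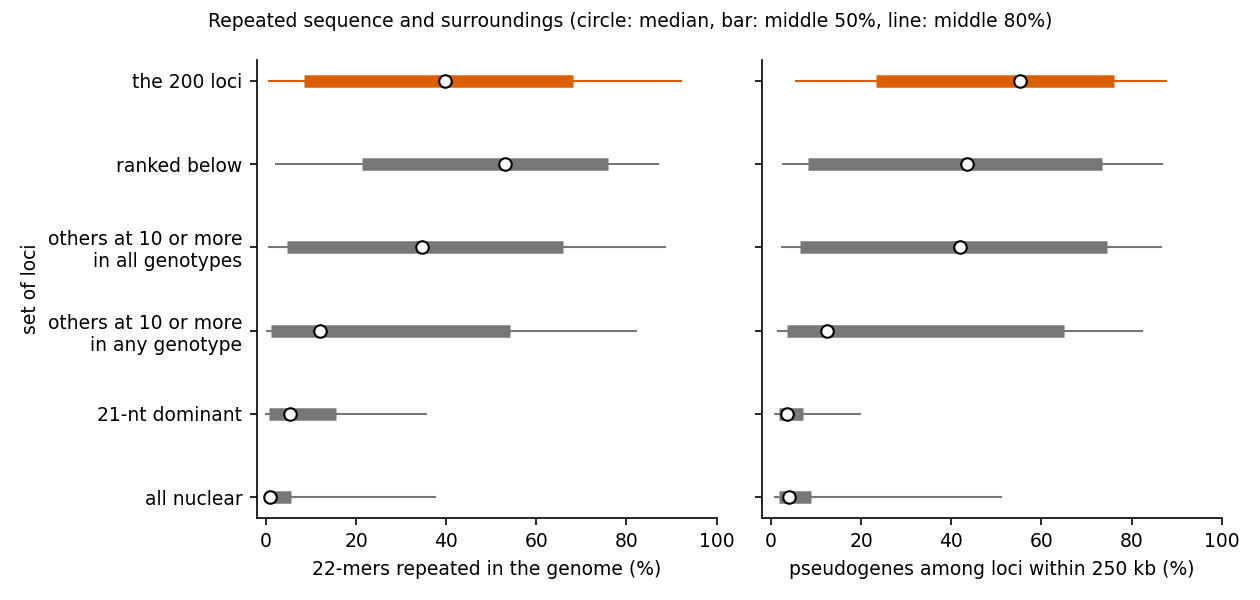
Share of 22-mers repeated in the genome and share of pseudogenes among neighbours within 250 kb, in percent, for the 199 members with coordinates and for 5 comparison sets, with the median as a circle, the middle 50% of loci as a bar and the middle 80% as a line. The medians are 39.7% and 55.3% for the members and 0.912% and 4.07% for all nuclear loci.

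Some members are close to each other or share sequence, so they are not 200 independent loci. The median distance to the nearest member was 63.0 kb, and 46 members formed 20 groups in which neighbours lay within 20 kb. The largest group held AT3G43141, AT3G43144, AT3G43150 and AT3G43154 over 39.4 kb (chr3:15113157-15152538). The next 4 held 3 loci each: AT2G12800, AT2G12810 and AT2G12835; AT3G32172, AT3G32200 and AT3G32210; AT5G32125, AT5G32179 and AT5G32215; and AT5G32267, AT5G32293 and AT5G32306. A 22-mer of 110 members was found in another member, in 391 pairs. Where 50% or more of the smaller locus was shared, 19 members formed 7 families, the largest with AT4G06516 on chromosome 4 and AT5G31736, AT5G32125, AT5G32179, AT5G32215 and AT5G32293 on chromosome 5. No 2 members had the same 22-nt reads in all libraries.

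Organelle sequence was present in a few members. All 22-mers of AT2G07685, 98.5% of those of AT2G07783 and 97.5% of those of AT2G07785 also occur in the mitochondrial genome, and these loci lie on chromosome 2. AT2G07783 and AT2G07685 lie within 11.3 kb, while AT2G07785 has no other member within 20 kb. AT5G24065 shares 8.88% of its 22-mers with the mitochondrial and 23.1% with the plastid genome. Whether their reads came from the nucleus or from an organelle cannot be told apart in these values.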

How the data were processed

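The 200 loci and the gene lists were chosen with earlier results of these data known. Small RNA libraries of 4 es3 and 4 es3dd samples were labelled, and Col entered only through the authors' means and comparisons. Per the submitters' processing notes, the authors' tools included Bowtie 1.2.2, SAMtools 1.9, DESeq2 (version not given) and the build TAIR10, and their roles are not stated. Per the file headers, the authors deposited mean TPM values of 21-nt and 22-nt reads per locus and genotype. The denominator of the TPM is not given in the sources used here, and size labels were taken from the headers. Per the file headers, the authors also deposited log2 fold changes with a p-value and an adjusted p-value, and some cells of the 21-nt log2 columns are not numeric.

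Means were decomposed into whole reads of each library, with a relative tolerance of 3e-15 and up to 2500 reads over the 4 libraries. Each mean tried had a single match, and 1 of 21854 random values matched in the es3dd 22-nt column and 0 in the other columns. Simulated means were recovered exactly in 100.0% of cases. Other per-sample columns not used numbered 0. Per-library columns had been assumed when the tests were planned. The recovered libraries have no replicate numbers.

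Differences were tested with limma 3.58.1 (R 4.3.3) and a mean-variance trend on log2(value + 1), over loci with a mean of at least 1 and with Benjamini-Hochberg adjustment over all of them. A locus was called at an adjusted p under 0.05 and a log2 difference of 1 or more in size. Limma was first tested on simulated data. Annotation, coordinates and sequences came from RefSeq TAIR10.1, in which 31710 of 32420 loci matched by locus tag. Shared and repeated sequence was counted in 22-mers on both strands over the whole genome.

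The loci named are the 20 with the largest summed level, MIR members, the 5 highest and 5 lowest differences of es3 from es3dd and of es3 from Col at 22 nt, the 2 loci on each side of each threshold and the 5 largest groups of neighbours. AT3G30714, AT2G07783, AT2G07785 and the families by shared sequence were named for sequence shared with other members or with an organelle, and were chosen after their values were seen. Alternatives covered the pseudocount, the filter, the scaling, voom weights, single libraries left out and the thresholds of the rule. A total of 3 loci were left out by name.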

Additional observations from a re-analysis of the deposited data

Results flagged for a closer look

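Among 68 groups of 4 libraries screened at the named loci, 4 had a library far from the others by Dixon's 95% criterion, which chance meets in about 1 in 20 groups. All 4 were in es3dd, and the values given here are those at 22 nt. At AT3G29153 the highest library was at 143.6, with the others between 95.1 and 101.4. At AT4G08596 the highest was at 89.8, with the others between 76.9 and 77.9. The lowest library of AT1G36880 was at 54.7, with the others between 58.3 and 58.7, and that of AT5G54700 was at 9.72, with the others between 14.0 and 14.5. Leaving out any 1 library moved the log2 difference of es3 from es3dd within -0.89 to -0.69 at AT3G29153, -2.03 to -1.86 at AT4G08596, -2.14 to -2.01 at AT1G36880 and 0.68 to 0.89 at AT5G54700.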

How the results depend on the processing

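The 22-nt loci called between es3 and es3dd numbered 2843 (2211 higher in es3, 632 lower). They numbered 1101 with a pseudocount of 5, 766 over loci with a mean of at least 10 and 12256 with libraries scaled to MIR loci. The split became 1228 higher and 1593 lower with libraries centred on the median locus, and 1236 and 1243 with quantile normalization. The 21-nt calls numbered 9294 (7962 higher, 1332 lower), 3708 with a pseudocount of 5, 2080 at a mean of at least 10 and 15615 with MIR scaling. Their split became 3308 and 4356 by the median locus, and 3278 and 4391 by quantiles. Leaving out any 1 library gave 2415 to 2566 calls at 22 nt and 8221 to 8988 at 21 nt.

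The members' median 22-nt difference of -0.31 became -0.74 with the median locus (64 members called lower), -0.39 with quantiles (36) and 1.28 with MIR scaling (136 called higher, 0 lower), and -0.33 to -0.27 with any 1 library left out. Without 1 library 23 to 30 members were called lower and 1 or 2 higher, and AT4G07586 (up to 1.015), AT1G35740 (to -1.05), AT2G16040 (to -1.05) and AT3G30147 (to -1.01) reached a 2-fold difference. The median of all loci moved from 0.30 to -0.13, -0.10 and 1.89. Centring on the median of loci with a mean of at least 10 gave -0.36 (27 called lower, 2059 and 693 over all loci). This was the first definition run, was set after seeing the data, and was kept beside the median of all loci, which was defined after the first result was seen. At 21 nt 165 members were called lower with the median locus, 145 with quantiles, 18 with a pseudocount of 5 and 1 with MIR scaling, against 43. Under MIR scaling 18 of 34 named loci changed sign, 15 of them not called and 3 called before: AT1G35745 (0.22), AT2G13143 (0.037) and AT4G08692 (0.107). A further 6 named loci lost their call. With the median locus 4 named loci that were not called changed sign. LURP1 kept its direction in every setting. Under all other settings no named locus that was called lost its call.

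The loci that met the rule numbered 267, and 419 with a minimum of 5, 134 with 20, 1029 with a ratio of 1.5, 26 with a ratio of 3 (22 of the 200) and 318 on 1 read scale (184 of the 200). On 1 read scale the median log2 ratio was 1.47 in es3 and 1.40 in es3dd, from 1.66 and 1.298. In the authors' deposited table the es3 over Col calls numbered 1729, 1165 at an adjusted p under 0.01 and 2033 with no fold minimum (25 members higher, 14 lower). The cause of these shifts was not tested. No paired analysis was possible because nothing ties a recovered library to a replicate number. Depth limits the 21-nt values most, with a median of 52 reads per member over the 4 es3 libraries.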

Other observations

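Only a minority of the MIR loci with an annotated 22-nt mature sequence were 22-nt dominant. A 22-nt mean of at least 10 and at least 2 times the 21-nt mean was found for 0, 3 and 3 of the 27 in Col, es3 and es3dd. Over all 175 MIR loci it was found for 2, 4 and 6, so in es3 and es3dd these loci made up much of the total. Of 27 such loci, 18 reached 10 in at least 1 genotype and size class, and their 22-nt mean was above the 21-nt mean in 4 loci in Col, 7 in es3 and 5 in es3dd. MIR850, whose annotated mature sequence is of 22 nt, had authors' 22-nt means of 438, 226 and 4201 in Col, es3 and es3dd, beside 249, 98.3 and 624 at 21 nt. MIR831 had 8.60, 16.7 and 47.0 at 22 nt beside 3.32, 1.51 and 5.05 at 21 nt, and it missed the minimum of 10 in Col. MIR173, with a 21-nt and a 22-nt mature sequence annotated, had a 22-nt mean of 20.7 in Col beside a 21-nt mean of 8937. MIR447a and MIR447b had the same 22-nt means, 245 in Col, 111 in es3 and 322 in es3dd.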
